A study of Mus musculus with 6 samples.

Results

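A group of 9 Purkinje cell and calcium-binding genes, *Pcp2*, *Pcp4*, *Pcp4l1*, *Calb1*, *Car8*, *Itpka*, *Arhgef33*, *Dner* and *Pvalb*, was followed in cerebellar RNA. They were taken by symbol from the deposited table of raw counts, where they are 9 of 53746 genes, and all 9 passed the filter on low counts. Cerebella came from 3 N153SLSL/LSLPcp2-cre mice, called Pcp2-cre here, and 3 N153SLSL/LSL mice, called control, all aged 2 months. Both genotypes carried the conditional *Sting1* N153S allele behind a stop cassette, and only the first also carried *Pcp2-cre*, whose Cre is driven by the Purkinje cell gene *Pcp2* and removes that cassette. Mice 1 and 2 of each genotype were labelled male and mouse 3 female. The poly A-selected libraries were made from whole cerebella of perfused mice, so that fewer Purkinje cells and less RNA per Purkinje cell cannot be told apart in any value below. In stained sections the paper saw a loss of Purkinje cells that began at 2 months. It also reported lower Purkinje cell genes from this RNA sequencing.

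Purkinje cells are the large inhibitory neurons whose axons form the output of the cerebellar cortex. Calcium enters their dendrites through voltage-gated channels and is released from internal stores by the IP3 receptor, and it is then held in check by soluble binding proteins. Several of the 9 genes belong to that system: calbindin (*Calb1*) and parvalbumin (*Pvalb*) bind calcium, *Car8* and *Itpka* act on IP3 signaling, and *Pcp4* encodes a small regulator of calmodulin.

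Promoters of 7 of the 9 genes were found in the RefSeq table of GRCm38.p6, each as 250 bases before the annotated start and 30 bases from the start on. *Calb1* and *Car8* had no entry. Where a gene had several listed promoters, as *Pcp2* had 4, the first listed was read. The letters AGGTCA, to which the Purkinje cell transcription factor RORA and other nuclear receptors bind as a half-site, were searched on both strands (TGACCT on the reverse). They occurred in 4 of the 7 promoters, and in 15.2% of the first listed promoters of 27025 genes. The 4 promoters that held the letters are shown together with that of *Pcp4l1*, the relative of *Pcp4*, which held none. Whether the letters go with how far a gene changed between genotypes was not tested. Matches are in capitals and each sequence reads 5′ to 3′ on the strand of its gene.
Pcp2: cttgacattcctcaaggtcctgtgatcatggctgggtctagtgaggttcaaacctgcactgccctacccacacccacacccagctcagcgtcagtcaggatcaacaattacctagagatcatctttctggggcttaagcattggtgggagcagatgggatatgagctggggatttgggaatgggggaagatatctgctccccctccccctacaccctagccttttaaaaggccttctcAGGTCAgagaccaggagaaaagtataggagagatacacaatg
Pcp4: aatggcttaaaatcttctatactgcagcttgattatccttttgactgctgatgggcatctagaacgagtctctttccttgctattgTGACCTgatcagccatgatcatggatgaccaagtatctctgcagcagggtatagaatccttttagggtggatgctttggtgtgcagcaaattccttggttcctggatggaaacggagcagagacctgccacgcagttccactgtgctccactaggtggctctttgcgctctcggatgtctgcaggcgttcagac
Dner: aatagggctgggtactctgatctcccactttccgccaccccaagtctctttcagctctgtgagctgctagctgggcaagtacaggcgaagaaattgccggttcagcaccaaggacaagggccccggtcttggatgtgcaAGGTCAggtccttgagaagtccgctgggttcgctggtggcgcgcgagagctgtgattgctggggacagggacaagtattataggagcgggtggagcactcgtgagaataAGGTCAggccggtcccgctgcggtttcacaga
Arhgef33: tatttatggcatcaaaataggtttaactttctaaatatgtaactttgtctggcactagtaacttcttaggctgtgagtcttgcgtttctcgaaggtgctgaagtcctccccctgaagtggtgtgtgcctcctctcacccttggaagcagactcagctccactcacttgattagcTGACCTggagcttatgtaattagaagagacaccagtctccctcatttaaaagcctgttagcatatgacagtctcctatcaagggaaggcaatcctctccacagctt
Pcp4l1: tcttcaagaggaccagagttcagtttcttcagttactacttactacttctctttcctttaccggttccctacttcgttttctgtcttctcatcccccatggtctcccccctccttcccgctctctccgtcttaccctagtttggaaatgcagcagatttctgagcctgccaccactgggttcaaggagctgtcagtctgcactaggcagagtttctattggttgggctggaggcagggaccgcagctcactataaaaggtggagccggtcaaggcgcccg
The windows were chr8:3625518-3625797 (reverse strand) for *Pcp2*, chr16:96467356-96467635 (forward strand) for *Pcp4*, chr1:84696192-84696471 (reverse strand) for *Dner*, chr17:80307157-80307436 (forward strand) for *Arhgef33* and chr1:171196239-171196518 (reverse strand) for *Pcp4l1*. In *Pcp2* the match began 12 bases before the start. *Dner* had a match 111 bases and another 2 bases before the start. The matches of *Pcp4* and *Arhgef33*, 164 and 76 bases before the start, were on the opposite strand. A second motif, the homeodomain core TAATTA (a palindrome), was present in 1 of the 7 promoters, that of *Arhgef33*, apart from its TGACCT, and in 5.14% of all first listed promoters. Over all listed promoters it was present for 2 of the 7 genes, beside 5.91% of 27025 genes, the other being *Pcp2*, in a window that is not its first. The promoters of *Itpka* and *Pvalb* held neither set of letters in this window. A match of letters is a description of the sequence and was not tested as a binding site.

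Total counts were between 6733178 and 10178218 per mouse, and the floor of 3 counts was 0.296 to 0.445 CPM (counts scaled to library size with TMM normalization), which covers counting error only. *Sting1*, examined first as the engineered gene, went from 25.4 ± 2.08 CPM in control mice to 37.9 ± 5.55 CPM with *Pcp2-cre* (SD, n = 3 each), a log2 fold change of 0.57 (edgeR quasi-likelihood test, Benjamini-Hochberg adjusted p = 3.59e-04), and all 3 Pcp2-cre mice lay above the controls. By the deposited FPKM the gap was narrow, with 8.93, 12.6 and 13.5 in control mice and 20.8, 14.3 and 14.2 in Pcp2-cre mice. Markers of other cerebellar cells were measured beside the 9 genes. Granule cell markers summed to 6796 to 6970 CPM in control and 6950.1 to 7224 CPM in Pcp2-cre mice, with 0 of 11 called and 1, *Neurod1*, higher by the adjusted p alone. Oligodendrocyte markers summed to 3536 to 3749 and 4139.9 to 4352 CPM, with 0 of 6 called but 4 higher by the adjusted p alone. Bergmann glia and astrocyte markers summed to 2109 to 2177 and 2426 to 2519 CPM, with 2 of 8 called higher, and by the adjusted p alone 3 were higher and 2 lower, and microglia markers to 74.7 to 79.8 and 198.7 to 220.5 CPM, with 6 of 8 called higher. Choroid plexus markers ran from 32.3 to 1226 CPM in control, where mouse 3 was low, and from 24.0 to 85.6 CPM in Pcp2-cre mice, and 4 of the 5 tested were called lower by edgeR, 3 of them with overlapping groups, against 1 by DESeq2. The part of these cell types in the changes of the 9 genes and of *Sting1* was not tested. In public single-cell data examined by the paper, *Sting1* mRNA was seen only in microglia and was low or absent in neurons. The paper held its own staining of the protein to be the better guide, and that staining found STING in Purkinje cells. With *Pcp2-cre* it saw more STING protein in Purkinje cells, and no such rise in microglia or in other neurons. The counts here do not separate the released allele from *Sting1* of other cells.

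The first question was whether the genes that mark Purkinje cells changed together once the mutant allele was released in those cells. Of the 9 genes 6, *Car8*, *Pcp4*, *Arhgef33*, *Calb1*, *Dner* and *Itpka*, were called lower in Pcp2-cre cerebella, falling to between 51.5% and 65.1% of the control mean. *Pcp2* and *Pvalb* fell by less, to 75.8% and 85.7%, and *Pcp4l1* stood at 94.6% with overlapping groups. To be called, a gene needed an adjusted p no higher than 0.05 (edgeR's quasi-likelihood test, Benjamini-Hochberg over 16961 genes) together with a log2 fold change at or beyond 0.5 in either direction. Among all genes tested 1.79% were called lower and 1.37% higher, against 6 and 0 of the 9. By the adjusted p alone 8 of the 9 were lower and 0 higher, beside 4.75% and 2.99% of all genes. In the same 8 the Pcp2-cre values all lay under the control values, a pattern that 11.4% of all genes showed, while 10.8% showed the opposite one. The median log2 fold change of the 9 was -0.74, beside 0.00 over all genes tested, whose 1st percentile was -0.81. All 9 together took 0.330% to 0.361% of the counts of a control mouse and 0.197% to 0.232% of those of a Pcp2-cre mouse.

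**Figure D1:**
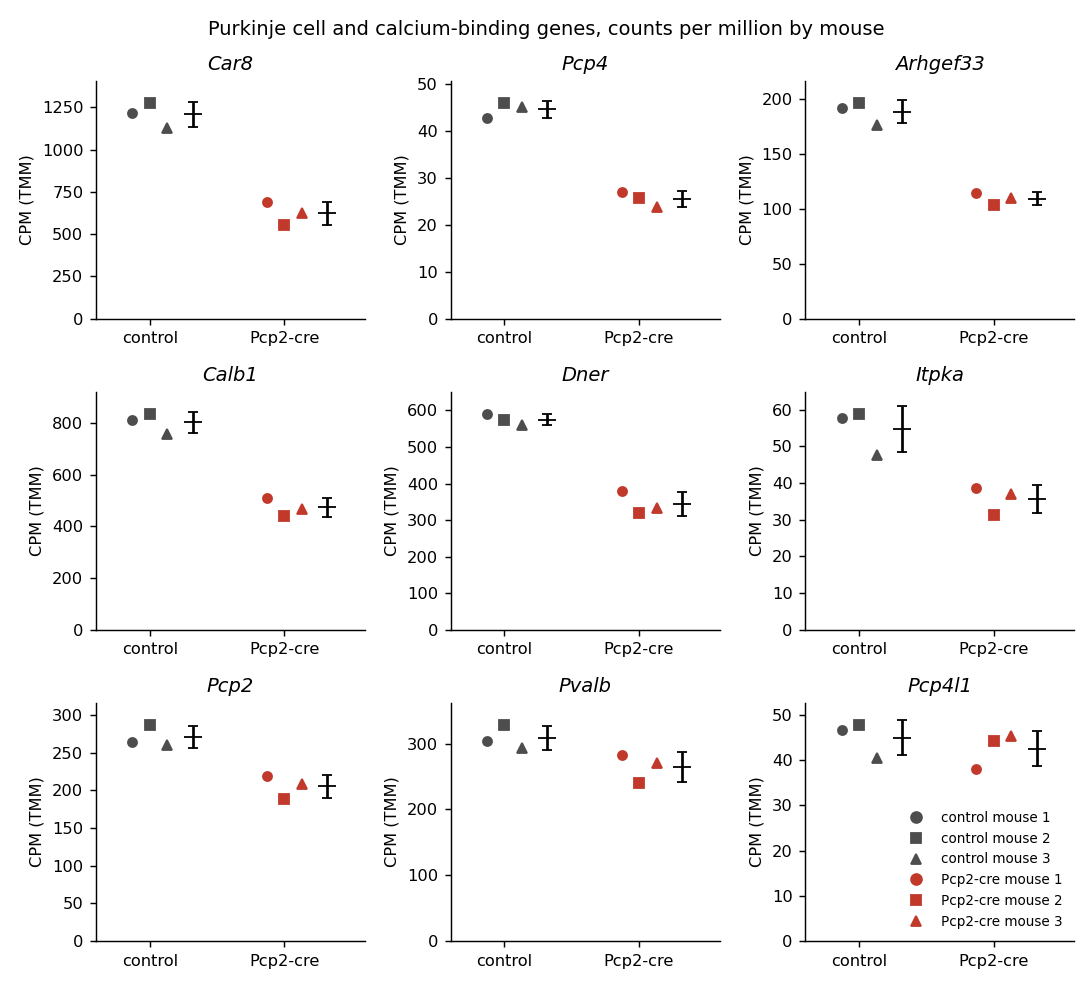
CPM (TMM-normalized, vertical axes from 0) of the 9 genes in each mouse, in order of fold change, with the mean and SD of each genotype (n = 3) to the right of its points. In 8 panels all Pcp2-cre mice lie below all controls, and in the panel of *Pcp4l1* the groups overlap.

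Of the genes for calcium buffers, *Calb1* (ENSMUSG00000028222, chromosome 4 of GRCm39, 15881155 to 15908085, forward strand) encodes calbindin, the binding protein by which Purkinje cells are commonly stained. Its level was 811, 835 and 758 CPM in control mice 1 to 3 and 511, 442 and 466 CPM in Pcp2-cre mice 1 to 3. The groups were far apart, and the highest Pcp2-cre mouse was well under the lowest control. From 801 ± 39.3 CPM in control it fell to 473 ± 35.2 CPM (SD, n = 3 each), a log2 fold change of -0.76 (SE 0.0480, edgeR adjusted p = 5.19e-10). *Pvalb* (ENSMUSG00000005716, chromosome 15, 78075314 to 78091149, reverse strand) encodes parvalbumin, which buffers calcium in Purkinje cells and also in the interneurons of the molecular layer. It had 304, 329 and 294 CPM in control mice and 283, 240.0 and 270.6 CPM in Pcp2-cre mice. The groups did not overlap, but Pcp2-cre mouse 1 came close to control mouse 3. From 309 ± 17.8 to 265 ± 22.3 CPM (SD, n = 3 each), the log2 fold change of *Pvalb* was -0.22 (SE 0.0542, edgeR adjusted p = 0.0109), under the fold threshold. That adjusted p rested on single mice: it was 0.0758 without control mouse 2 (log2 fold change -0.18) and 0.163 without Pcp2-cre mouse 2 (-0.16). Markers of molecular layer interneurons, the other *Pvalb*-expressing cells, summed to 1134 to 1166 CPM in control and 1032 to 1069 CPM in Pcp2-cre mice. Of 9 tested, 0 were called and 3 were lower by the adjusted p alone. These were *Gad1*, *Slc32a1* and *Cdh22*, with log2 fold changes of -0.17, -0.25 and -0.22. The other 6 ranged from -0.12 to -0.004. *Gad1* (491 to 437 CPM) and *Slc32a1* (145 to 122 CPM) are genes of inhibitory neurons, which Purkinje cells also are, so the sum is not specific to interneurons. The part of these interneurons in the level of *Pvalb* was not tested.

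Both genes that act on IP3 were called lower. *Car8* (ENSMUSG00000041261, chromosome 4, 8141533 to 8239088, reverse strand) encodes a carbonic anhydrase-related protein without enzyme activity that binds the IP3 receptor and lowers its affinity for IP3. It had the most counts of the 9, not scaled to length, with 1217, 1278 and 1129.7 CPM in control mice and 692, 553 and 623 CPM in Pcp2-cre mice. It also had the greatest change of the 9, from 1208 ± 74.6 to 623 ± 69.2 CPM (SD, n = 3 each), a log2 fold change of -0.96 (SE 0.0578, edgeR adjusted p = 2.65e-10). *Itpka* (ENSMUSG00000027296, chromosome 2, 119572740 to 119591984, forward strand) encodes a neuronal kinase that phosphorylates IP3 and so ends its action on the receptor. Control mice had 57.8, 58.9 and 47.6 CPM and Pcp2-cre mice 38.6, 31.3 and 37.1 CPM. Control mouse 3 was low among controls but above every Pcp2-cre mouse. *Itpka* went from 54.8 ± 6.26 to 35.7 ± 3.86 CPM (SD, n = 3 each), a log2 fold change of -0.61 (SE 0.0893, edgeR adjusted p = 6.15e-05), with a 95% interval from -0.79 to -0.44 that spans the fold threshold. *Itpka* rested on 252 to 482 counts per mouse, against at least 4227 for *Car8*.

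Of *Pcp4* and its relative *Pcp4l1*, only the first was called. *Pcp4* (ENSMUSG00000090223, chromosome 16, 96268806 to 96326997, forward strand) encodes Purkinje cell protein 4, a small protein whose IQ motif binds calmodulin and speeds its exchange of calcium. It had 42.7, 46.0 and 45.0 CPM in control mice and 26.9, 25.8 and 23.7 CPM in Pcp2-cre mice, so that the spread within each genotype was small beside the gap. The mean fell from 44.6 ± 1.72 to 25.5 ± 1.62 CPM (SD, n = 3 each), a log2 fold change of -0.80 (SE 0.0757, edgeR adjusted p = 1.68e-07). *Pcp4l1* (ENSMUSG00000038370, chromosome 1, 171000246 to 171023837, reverse strand) encodes the related Purkinje cell protein 4-like 1, which shares the IQ motif. Its level was 46.6, 47.8 and 40.5 CPM in control mice and 38.1, 44.2 and 45.4 CPM in Pcp2-cre mice. The groups overlapped, since Pcp2-cre mice 2 and 3 lay within the range of the controls. The mean of *Pcp4l1* was 45.0 ± 3.94 CPM for controls and 42.5 ± 3.92 CPM for Pcp2-cre mice (SD, n = 3 each), and its log2 fold change of -0.07 had a 95% interval from -0.23 to 0.09 (edgeR adjusted p = 0.729). The counts behind both genes were similar, 161 to 456 per mouse for *Pcp4* and 290 to 410 for *Pcp4l1*.

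Among the remaining genes, *Pcp2* (ENSMUSG00000004630, chromosome 8, 3673371 to 3675545, reverse strand) encodes a GoLoco-domain protein that acts on inhibitory G proteins, and its regulatory sequence drives the Cre transgene of these mice. Control mice had 265, 287 and 260.5 CPM and Pcp2-cre mice 219.5, 188 and 208 CPM. The groups did not overlap and the step was smaller than that of *Calb1*. *Pcp2* fell from 271 ± 14.3 to 205 ± 15.7 CPM (SD, n = 3 each), a log2 fold change of -0.40 (SE 0.0526, edgeR adjusted p = 1.79e-05), under the fold threshold. Whether reads of the Cre transgene can count as *Pcp2* is not given in the sources used here. *Arhgef33* (ENSMUSG00000054901, chromosome 17, 80614826 to 80707510, forward strand) is annotated as a guanine nucleotide exchange factor. It had 192, 196 and 176 CPM in control mice and 115, 104 and 109 CPM in Pcp2-cre mice, with the narrowest relative spread among Pcp2-cre mice of the 9. Its mean fell from 188 ± 10.6 to 109 ± 5.48 CPM (SD, n = 3 each), a log2 fold change of -0.78 (SE 0.0490, edgeR adjusted p = 4.83e-10). *Dner* (ENSMUSG00000036766, chromosome 1, 84347560 to 84674080, reverse strand) encodes a membrane protein with EGF-like repeats that is found on Purkinje cell dendrites and can bind Notch on Bergmann glia. Its control values were 591, 574 and 560.1 CPM, and its Pcp2-cre values were 381, 319 and 333 CPM. From 575 ± 15.5 CPM *Dner* fell to 344 ± 32.2 CPM (SD, n = 3 each), a log2 fold change of -0.74 (SE 0.0507, edgeR adjusted p = 1.54e-09).

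**Figure D2:**
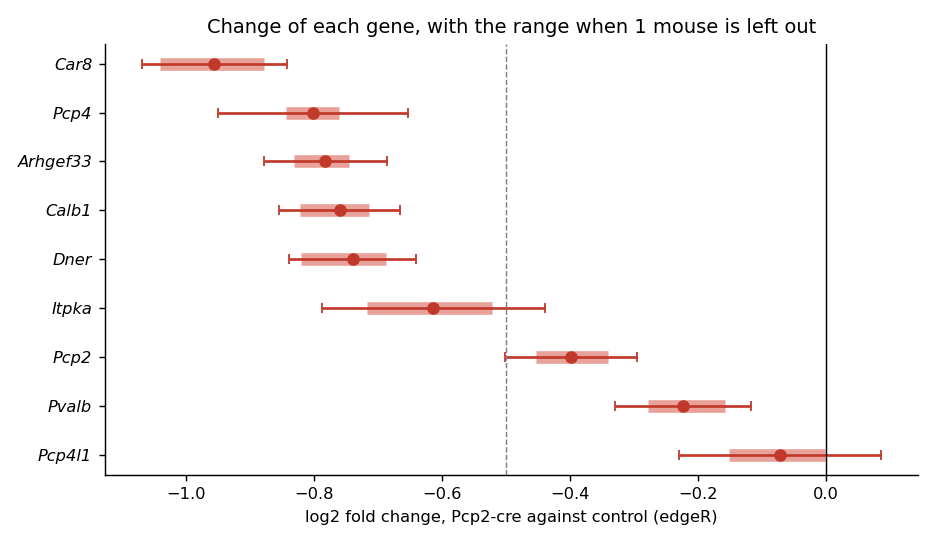
Log2 fold change of each gene in Pcp2-cre against control cerebella (points, edgeR) with its 95% interval (lines) and the range when each of the 6 mice was left out in turn (pale bars). The dashed line marks the fold threshold of -0.5; *Car8* is at -0.96 and the range of *Pcp4l1* ends next to 0.

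The same mice tended to be high or low for many of the genes at once. Control mouse 2 was the highest control for 8 of the 9 genes and control mouse 3 the lowest for 8. Among Pcp2-cre mice, mouse 1 was the highest for 8 and mouse 2 the lowest for 7. Averaged over the 9 genes, the log2 change from the control mean was 0.01, 0.07 and -0.08 in control mice 1 to 3 and -0.52, -0.69 and -0.59 in Pcp2-cre mice 1 to 3. The genotypes were therefore separated by more than the mice within them. With each mouse left out in turn, the log2 fold change ranged from -1.04 to -0.88 for *Car8*, from -0.82 to -0.71 for *Calb1*, from -0.84 to -0.76 for *Pcp4* and from -0.72 to -0.52 for *Itpka*, and the same 6 genes were called each time. Over all genes, between 243 of 17107 and 387 of 17150 were called lower in these fits.

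Whether the 9 genes fell to the same degree was asked of ratios within each library, which do not depend on how libraries are scaled. Each gene was set against the mean of the other 8 on the log2 scale, and the Pcp2-cre minus control difference was taken. The 9 differences sum to 0 by construction, so that genes above the others require genes below them, and they are not separate results. Relative to the others 3 genes were higher, with all Pcp2-cre mice above all controls: *Pcp4l1* by 0.58, *Pvalb* by 0.42 and *Pcp2* by 0.22. Another 5 lay below without overlap, *Car8* at -0.41, *Pcp4* at -0.24, *Arhgef33* at -0.21, *Calb1* at -0.18 and *Dner* at -0.16. *Dner* was only just apart, with -0.088 in Pcp2-cre mouse 1 and -0.081 in control mouse 2, each less the control mean. The share of all genes without overlap in such ratios was not computed, so these counts have no background beside them. The ratio of *Itpka* overlapped between genotypes, at -0.02. Its nearness to the mean is a description, with values of -2.14, -2.17 and -2.35 in control and -2.20, -2.35 and -2.18 in Pcp2-cre mice. Next, 3 pairs of genes were compared directly. *Pcp4* and *Pcp4l1* had nearly equal CPM, not scaled to length, in control mice, with log2 ratios of -0.13, -0.05 and 0.15. *Pcp4* was the lower by CPM in every Pcp2-cre mouse, at -0.50, -0.78 and -0.94, a difference of -0.73. By FPKM, *Pcp4* and *Pcp4l1* were far apart in control mice, at 537 and 24.4, and the difference of their log2 ratio was -0.77. The near-equal level thus holds for the counts only. The ratio of *Pvalb* to *Calb1* was -1.42, -1.34 and -1.36 in control and -0.85, -0.88 and -0.78 in Pcp2-cre mice, a difference of 0.54. *Pcp2* against *Calb1* went from -1.61, -1.54 and -1.54 to -1.22, -1.23 and -1.16, a difference of 0.36. For the 11 ratios without overlap the two-sided exact permutation test over mice gave p = 0.10, the smallest that 3 against 3 mice allow (0.109 after Benjamini-Hochberg adjustment over 12 ratios), and for *Itpka* it gave p = 0.50. This design could not reach 0.05. In edgeR fits scaled to the compared genes, added after the data were seen, 9 of the 12 differences passed 0.05 when p was adjusted over all genes of each fit, and 11 when it was adjusted over the 12 ratios. *Pcp4* (unadjusted p = 0.0439) and *Dner* (0.0456) against the other 8 passed in the second case only, and *Itpka* in neither. In the edgeR fits against the other 8, the adjustment over all genes changed p little, from 0.00802 to 0.00982 for *Pcp2*. Scaling to genes that fell shifts most other genes in these fits, so this adjustment is a weak correction there.

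**Figure D3:**
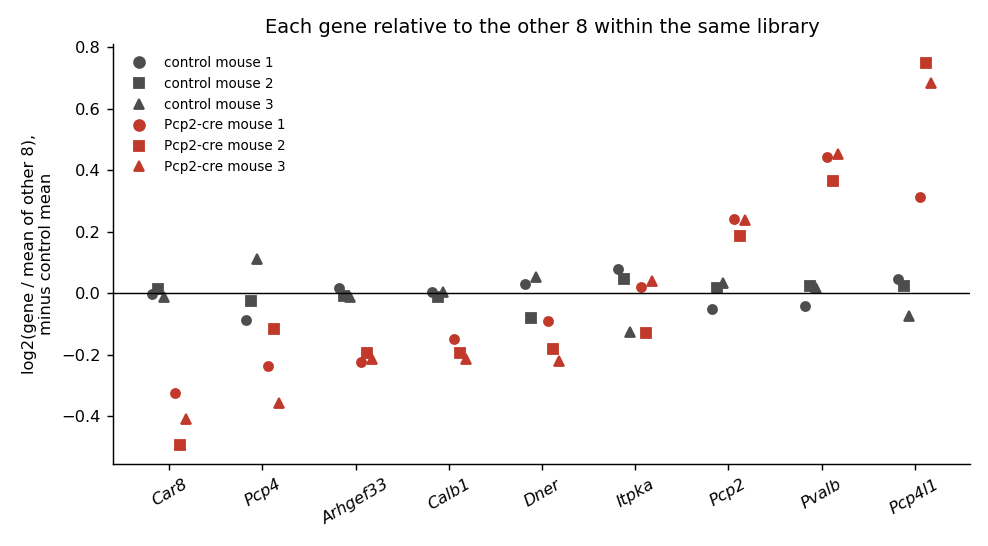
Log2 ratio of each gene to the mean of the other 8 in the same library, less the control mean (vertical axis), for 3 control and 3 Pcp2-cre mice. *Pcp2*, *Pvalb* and *Pcp4l1* lie above 0 in all Pcp2-cre mice, and *Itpka* overlaps the controls. *Car8*, *Pcp4*, *Arhgef33*, *Calb1* and *Dner* lie below the controls, *Dner* only just (-0.088 in Pcp2-cre mouse 1, -0.081 in control mouse 2).

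Levels between genes were compared on the deposited FPKM values, which are scaled to transcript length. *Pcp2* led with 552 ± 27.9 FPKM in control cerebella (SD, n = 3), rank 34 among all genes, and *Pcp4* followed with 537 ± 29.6 FPKM. These neighbours overlapped in control mice. *Pvalb* had 354 ± 15.8, *Car8* 325 ± 18.4, *Calb1* 199 ± 7.47, *Dner* 154 ± 4.58 and *Arhgef33* 75.4 ± 8.28 FPKM, each apart from its neighbours, though the lowest *Pvalb* value (342) was only just above the highest of *Car8* (340.03). *Itpka* and *Pcp4l1* closed the order at 25.6 ± 2.57 and 24.4 ± 2.72 FPKM and did not differ beyond their spread. In Pcp2-cre cerebella *Pcp2* stood at 395 ± 53.6 FPKM, *Pcp4* at 305 ± 32.7, *Pvalb* at 296 ± 27.5, *Car8* at 156 ± 19.7, *Calb1* at 111 ± 9.56, *Dner* at 88.9 ± 9.50, *Arhgef33* at 42.8 ± 4.02, *Pcp4l1* at 23.5 ± 1.42 and *Itpka* at 16.3 ± 2.11 (SD, n = 3). There *Pcp4* and *Pvalb* overlapped, *Pcp2* stood apart from *Pcp4*, and *Pcp4l1* was above *Itpka* in every mouse. *Car8* moved from rank 66 to rank 208 among all genes, *Calb1* from 135 to 340, and *Pcp2* from 34 to 48. On FPKM the groups of 8 genes again did not overlap (two-sided exact permutation p = 0.10 each, the smallest possible), and those of *Pcp4l1* did (p = 0.80). The share of all genes without overlap was not computed on FPKM, and on CPM 11.4% of all genes tested lay below. Tested with limma on log2(FPKM + 1), 5 of the 9 passed at an adjusted p of 0.05, whereas *Pcp2* (0.0824), *Itpka* (0.0513) and *Pvalb* (0.184) did not. With the fold threshold added, limma called 5 of the 9 lower and 0 higher, beside 155 and 126 of 16961 genes.

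**Figure D4:**
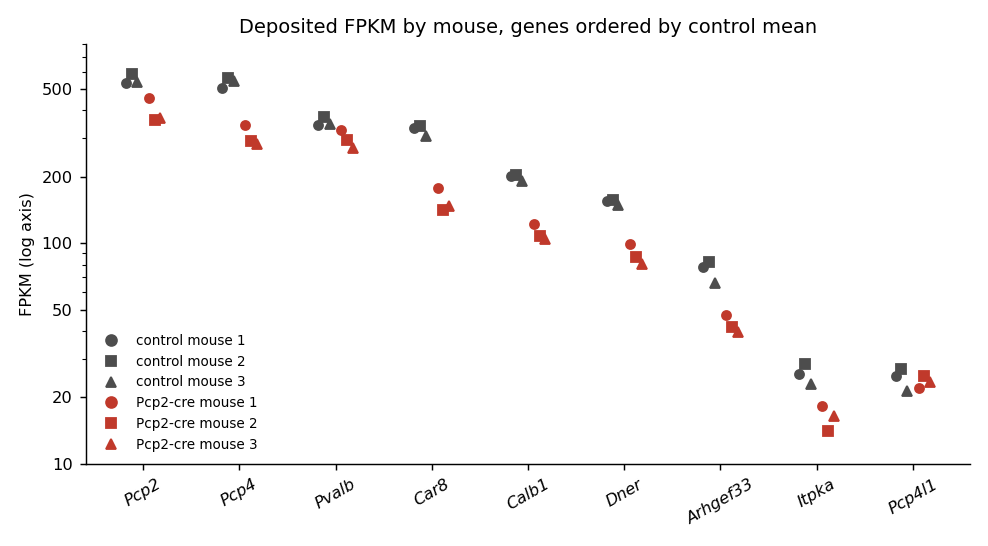
Deposited FPKM (log axis) of the 9 genes in each mouse, ordered by the control mean. *Pcp2* and *Pcp4* share the top of the order in control mice at 552 and 537 FPKM, and *Itpka* and *Pcp4l1* the bottom at 25.6 and 24.4 FPKM.

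Some values depend on how reads were assigned. *Pcp4* had 12.01 FPKM per CPM in control mice and *Pcp2* 2.03, against a median of 0.260 over the genes tested, so the place of *Pcp4* in the order rests on the FPKM table. The merged exons hold 1121 bases for *Pcp4* and 1828 for *Pcp2* in Gencode M39. Why the FPKM of *Pcp4* is so high for its counts was not tested, and its level beside the other genes is uncertain. Exons of 5 of the genes overlap those of a neighbour in Gencode M39, and the use of strand in counting is not given, so reads of a gene and an opposite-strand partner cannot be told apart. *Pcp2* shares 941 bases with *Pet100*, which encodes a mitochondrial complex assembly factor. *Pet100* went from 191 ± 7.78 CPM in control to 141 ± 13.1 CPM, a log2 fold change of -0.44 (edgeR adjusted p = 6.34e-06), while its FPKM was 11.1 ± 1.96 and 10.8 ± 1.70 (SD, n = 3). *Arhgef33* shares 574 bases with the noncoding gene *Gm10190*, which fell from 21.7 ± 2.64 to 10.9 ± 1.27 CPM (log2 fold change -0.98, edgeR adjusted p = 5.62e-06) and is listed at 0 FPKM in every mouse. *Itpka* shares 647 bases with *Ltk*, which had 14.8 ± 1.31 and 14.7 ± 0.854 CPM (log2 fold change -0.01, edgeR adjusted p = 0.978), and 71 bases with the noncoding gene *Gm75736*, not analysed here. *Dner* shares 77 bases with *Mir5126* (log2 fold change -0.47, edgeR adjusted p = 0.148). *Pcp4* shares 243 bases on its own strand with *Gm49948*, which had 0 counts in all mice. How reads shared by overlapping genes were counted is not given. These 0 counts therefore do not show whether shared reads were lost from *Pcp4*.

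Other genes of the same cells and of the same families were then read against the 9. Of 28 other Purkinje cell genes, 15 were called lower and 0 higher, and by the adjusted p alone 25 were lower and 1 higher. Among those with the smallest p were *Itpr1*, which encodes the IP3 receptor that *Car8* binds (log2 fold change -0.98), and the T-type calcium channel *Cacna1g* (-0.83). *Itpr1* went from 3569.8 ± 208 to 1808 ± 46.2 CPM (SD, n = 3 each), its -0.98 standing beside -0.96 for *Car8*. The only one higher was *Stmn4*, from 74.5 ± 5.03 to 91.1 ± 3.09 CPM (log2 fold change 0.28, edgeR adjusted p = 1.19e-03). The list had a median log2 fold change of -0.57, with a range from -1.08 to 0.28.

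Calcium-binding and calmodulin genes outside the 9 were less uniform. Of 33 listed genes 30 were tested, 4 were called lower and 0 higher, and by the adjusted p alone 6 were lower and 2 higher. The median was -0.05. Called lower were *Casq2*, a calcium store protein (log2 fold change -1.33, from 39.9 ± 3.00 to 15.9 ± 1.69 CPM), the neuronal calcium sensor *Hpcal1* (-0.55), the calmodulin-like *Cabp7* (-0.56) and the potassium channel subunit *Kcnip1* (-0.58). *Hpca*, another calcium sensor, fell by 0.31 on the log2 scale. The genes higher by the adjusted p were *Gap43* (0.15) and the glial gene *S100b* (0.13). *Calb2*, which encodes calretinin, the calbindin relative of granule cells, had a mean of 333 ± 26.9 CPM among controls and of 332 ± 11.3 CPM among Pcp2-cre mice (SD, n = 3 each, log2 fold change -0.01, edgeR adjusted p = 0.970). The calmodulin genes *Calm2* and *Calm3* had log2 fold changes of -0.11 and -0.08, with edgeR adjusted p of 0.174 and 0.282.

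The families of *Itpka*, *Car8* and *Dner* were listed too. Of 9 other genes for IP3 kinases and phosphatases 0 were called (edgeR), with 4 lower and 1 higher at an unadjusted p under 0.05 and 0 called by DESeq2, and by the adjusted p alone 2 were lower and 1 higher. The most highly counted, the phosphatase *Inpp5a*, which was also on the Purkinje cell list, had a log2 fold change of -0.48 (edgeR adjusted p = 7.24e-07). Of 11 tested carbonic anhydrase genes 1 was called lower, *Car12*, at -3.06, and by the adjusted p alone 2 were lower and 1 higher. Its control values were 15.8, 26.4 and 1.09 CPM and its Pcp2-cre values 1.05, 1.04 and 2.95 CPM, so the groups overlapped, and control mouse 3 was low as it was for the choroid plexus markers; the part of that tissue in *Car12* was not tested. *Car4*, the most highly counted, was at 0.18 (edgeR adjusted p = 0.0103). Of 16 tested Notch pathway genes 0 were called by edgeR or DESeq2 and 0 had an unadjusted p under 0.05 in edgeR, and the most highly counted, *Ptprz1*, had a log2 fold change of -0.05 (edgeR adjusted p = 0.675).

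**Figure D5:**
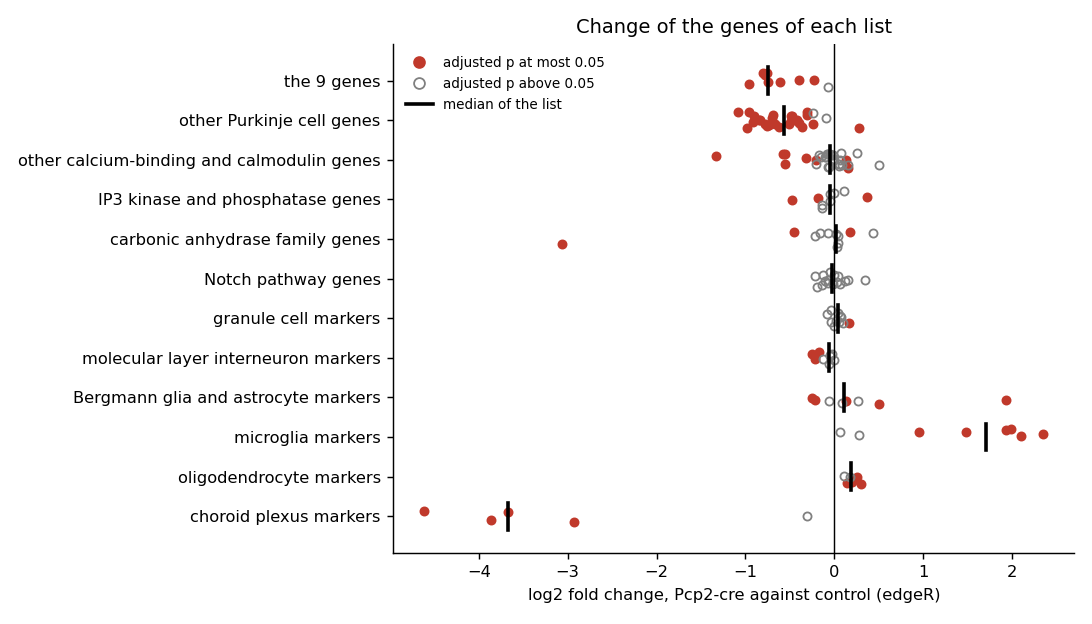
Log2 fold change of each tested gene (horizontal axis) by gene list, filled where the edgeR adjusted p was at most 0.05, with the list's median as a bar. The median of the 9 genes is -0.74 and that of the other Purkinje cell genes -0.57, and those of the calcium-binding, IP3, carbonic anhydrase and Notch lists are between -0.05 and 0.02.

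The genes whose profile over the 6 mice was most like the mean profile of the 9 were sought among 11373 other genes with a mean of at least 10 CPM, by the root mean square difference of log2 CPM centred on the control mean. They were *Washc2* (0.0332), *Rnf19b* (0.0346), *Kcng4* (0.0391), *Gm44103* (0.0395) and *Myo10* (0.0426), with log2 fold changes of -0.64, -0.61, -0.64, -0.59 and -0.64. *Kcng4* encodes a potassium channel subunit and *Myo10* an unconventional myosin. Of the 9 themselves *Itpka* was nearest to the mean profile (0.0745) and *Pcp4l1* farthest (0.386).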

How the data were processed

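Poly A RNA of whole cerebellum was sequenced from 6 mice, 3 of each genotype, grouped by their labels. Reads were trimmed by the authors, mapped with STAR to GRCm39, and summarised on Gencode genes with featureCounts and StringTie; versions, the Gencode release and the use of strand are not given in the sources used here. Raw counts (53746 genes) and FPKM (55005 genes) were deposited by the authors as separate tables. Columns map to mice by name. Count data were filtered by filterByExpr, normalized by TMM and tested by genotype with the quasi-likelihood test of edgeR 4.0.16 under R 4.3.3, which covered 16961 genes. Calls used the study's thresholds, 0.05 for the Benjamini-Hochberg adjusted p and 0.5 for the size of the log2 fold change. Alternatives used DESeq2 1.42.0, limma 3.58.1 on log2(FPKM + 1) or log2(FPKM + 0.1), edgeR's likelihood ratio test, other scaling and filters, a replicate block, sex, and each mouse left out. The scripts were tested on simulated data. Chi-square per gene between replicates was 1.37 to 3.20, above sampling noise. The labels name separate mice.

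The 9 genes and all lists were chosen with earlier results of these data known. Named beside the 9 are *Sting1*; in the Purkinje cell and calcium-binding lists the 5 smallest p in each direction among adjusted p up to 0.05, with *Calb2*, *Calm2* and *Calm3*; in the IP3, carbonic anhydrase and Notch lists every called gene and the most highly counted; the 5 most similar profiles; and genes whose exons overlap a member. Some single genes that this rule names are not reported here. *Neurod1*, *Gad1*, *Slc32a1* and *Cdh22* fall outside this rule and were chosen after their values were seen. Coordinates and overlaps came from Gencode M39 (GRCm39) and promoters from RefSeq (GRCm38.p6).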

Additional observations from a re-analysis of the deposited data

How the results depend on the processing

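The same 6 of the 9 genes were called lower with DESeq2, edgeR's likelihood ratio test, other scaling, other filters on low counts, sex as a covariate and each mouse left out. Of all 16961 genes tested, 304 were called lower in the main fit, 231 with DESeq2 and 332 with the likelihood ratio test. Other scaling gave 306 and 284, and sex as a covariate 329. The other filters gave 393 of 30470 and 285 of 15755 genes. With a mouse left out the count over all genes was between 243 of 17107 and 387 of 17150. With limma on FPKM 5 were called and *Itpka* was not, with either pseudocount, and 5 rather than 8 passed on the adjusted p alone. With a mouse left out this last count was 7 to 8 and the median log2 fold change -0.82 to -0.69. No threshold on the fold gave 8 genes, and a log2 threshold of 1 gave 0, beside 805 and 94 of all 16961 genes called lower. For other Purkinje cell genes the count of 15 became 25 and 1 under those thresholds, and 14 to 19 with a mouse left out. For calcium-binding genes 4 became 6 and 1, and 3 to 4 with a mouse left out. The 1 call in the IP3, carbonic anhydrase and Notch lists together became 2 with no filter on low counts, 0 with at least 10 counts in every mouse, 0 with DESeq2, 6 with no fold threshold, and 1 to 2 with a mouse left out. The cause of these shifts was not tested beyond the thresholds themselves.

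Scaled to the compared genes in edgeR, an alternative chosen after seeing the data, the differences against the other 8, with p adjusted over all genes of each fit, were 0.22 for *Pcp2* (adjusted p = 0.00982), 0.59 for *Pcp4l1* (3.21e-07), -0.18 for *Calb1* (0.0228), -0.41 for *Car8* (7.43e-08), -0.21 for *Arhgef33* (0.0174) and 0.42 for *Pvalb* (4.82e-07), and those of the pairs were 0.36 for *Pcp2* to *Calb1* (9.06e-05), -0.73 for *Pcp4* to *Pcp4l1* (7.58e-05) and 0.54 for *Pvalb* to *Calb1* (3.94e-09). Only the difference of *Itpka* changed sign with a mouse left out, between -0.086 and 0.031, and was 0.018 without control mouse 1, 0.0012 without control mouse 2 and 0.031 without Pcp2-cre mouse 2.

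Mouse numbers recur in both genotypes. The correlation of deviations for mice of the same number was 0.041, 0.056 and 0.166, not above 0.1 in every pair, and not every mouse correlated best with its own number, so the numbers were not taken to pair the mice. With the replicate block the same 6 genes were called lower, beside 319 of all 16961 genes, and the median was -0.74.

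The counts behind *Itpka*, *Pcp4* and *Pcp4l1*, at most 482 per mouse, limit their precision, and the number of mice limits the tests of ratios.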
